A study of Mus musculus with 9 samples.

Results

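The crypt niche genes of the small intestine were examined as a module of 36 genes that encode secreted Wnt, R-spondin, BMP, Notch, EGF family and Hedgehog signals, their secreted inhibitors, and a few receptors and outputs of these pathways. The 36 genes were taken by symbol, with no threshold on their values, from a list drawn up with earlier results of these data known, and all of them were found among the 19360 genes of the table. The data are RNA sequencing of small intestine from 9 wild-type BALB/c mice, 3 per group, taken 12 h after 9 Gy of total body irradiation (TBI). Mice in the 3pRNA + anti-IFNAR1 + TBI group (called blockade below) received a blocking antibody to the type I interferon receptor 48 h and the RIG-I agonist 3pRNA, a double-stranded RNA with a 5′-triphosphate end, 24 h before irradiation. Mice in the 3pRNA + TBI group received 3pRNA alone at that time, and mice in the TBI group were irradiated without pretreatment. Every mouse was irradiated. There was no group with carrier alone, with a control antibody or with the antibody without 3pRNA, so what carrier or antibody do by themselves cannot be told apart from the action of 3pRNA or from the loss of interferon signaling. The route of the antibody is given differently in the sample notes and in the general methods, and is not settled here.

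Intestinal crypts are renewed by stem cells at their base, and the signals of the surrounding niche set how many cells remain stem cells. Wnt ligands from Paneth cells and from mesenchyme beneath the crypt keep stem cells dividing, and R-spondins, which bind the Lgr receptors, raise the amount of Wnt receptor on the cell surface. BMP ligands oppose this and promote differentiation toward the villus, while secreted BMP antagonists such as Grem1 and Nog keep BMP activity low at the crypt base. Dll1, Dll4 and Jag1 signal to Notch receptors on neighboring cells, where Hes1 represses Atoh1, the factor that commits cells to secretory lineages. EGF family ligands act through Egfr and related receptors as mitogens, and Ihh from the epithelium signals to Ptch1 and Gli1 in the mesenchyme.

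Values are read counts per gene divided by the size factor of the library, called scaled counts here. The 9 libraries held 6487053 to 19946586 reads in genes. Of the 36 genes, 32 had a mean scaled count of at least 10 and were tested with limma together with all 14199 genes that reached this level, and an adjusted p under 0.05 counted as called. Changes are log2 differences of (scaled count + 1), which understates the change of low genes. Markers of small intestinal epithelium had a mean log2 level of 13.9 to 14.5 in all 9 libraries. Mx1, an interferon-induced antiviral gene, had a log2 change of -2.38 in blockade against 3pRNA + TBI mice (adjusted p = 0.0012, limma) and of 1.78 in 3pRNA + TBI against TBI mice (adjusted p = 0.0083, limma; 1.79 and adjusted p = 0.079 with TBI replicate 2 as the only TBI mouse). TBI replicates 1 and 3 stood apart from the other 7 libraries by low levels of smooth muscle, enteric neuron and mesothelium markers, and called changes against TBI are given with and without them. The fit without them has TBI replicate 2 as the only TBI mouse, whose spread is assumed to be that of the other groups. Why calls were lost in this fit was not tested, and with 1 TBI mouse a lost call does not by itself show whether a result is stable. Its log2 changes are given for their size. In 3pRNA + TBI against TBI some were smaller there, as in Chrdl1 (0.61, against 1.74 with all libraries), and some larger, as in Dkk3 (1.23, against 1.11). Scaling the libraries to equal totals moved the median gene of 3pRNA + TBI against TBI from -0.024 to 0.090 on the log2 scale, with 494 genes called higher and 300 lower as deposited, and 809 higher and 175 lower with equal totals. The calls of the 36 niche genes in that comparison were the same under both scalings.

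Per kilobase of exon, the most abundant niche signals in TBI mice were 236 for Bmp2, 187 for Ihh, 175 for Ereg, 168 for Areg, 158 for Atoh1 and 151 for Bmp3, all as scaled counts per kilobase. Of these, Ihh and Atoh1 are epithelial genes, and the cell sources of the others were not examined here. The library values of neighbors in this order overlapped. The Wnt ligands were lower, with 21.5 for Wnt2b and 17.7 for Wnt3 in TBI mice on the same scale, and 5.97 for Wnt6. Grem1 was the only secreted antagonist among the most abundant genes, at 254 in blockade, 354 in 3pRNA + TBI and 129 in TBI mice per kilobase. In 3pRNA + TBI mice it had the highest mean of the 36 genes, a place that Bmp2 held in blockade and TBI mice.

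**Figure D1:**
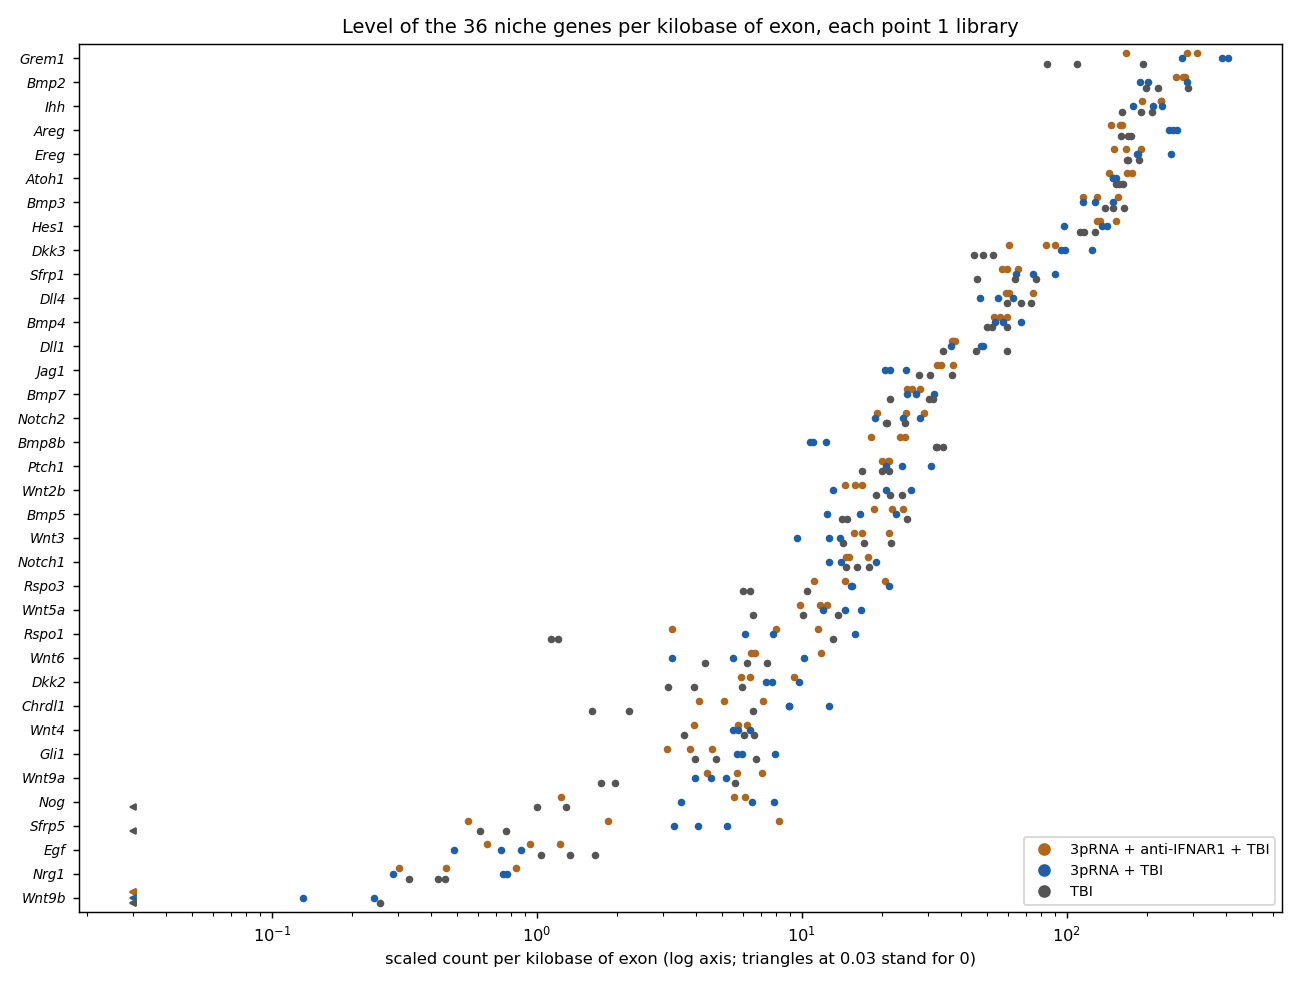
Scaled count per kilobase of exon (log axis) of the 36 niche genes, ordered by mean level, with each point 1 library of the blockade, 3pRNA + TBI or TBI group. In TBI mice the means span from 236 for Bmp2 to 0.0856 for Wnt9b, which had at most 1 read in a library, and most genes show overlapping points of all 3 groups.

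Of the 32 genes tested, 6 were called in 3pRNA + TBI against TBI mice, 5 higher and 1 lower, which is 18.75% against 5.59% of all genes (3.48% higher and 2.11% lower). The genes called higher were the BMP antagonists Grem1 and Chrdl1, the R-spondin Rspo3, the Dickkopf family member Dkk3 and the EGF family ligand Areg. The BMP ligand Bmp8b was lower. In blockade against 3pRNA + TBI mice, 3 of 32 were called, 9.38% against 1.42% of all genes, with Areg lower (1.23% of all genes) and Bmp8b and the Notch ligand Jag1 higher (0.19% of all genes). In blockade against TBI mice none was called by limma or by voom, as was the case for all genes (0%). Without TBI replicate 2, however, 355 of all genes were called there (2.49%), 311 of them higher, and without blockade replicate 2, 9 were. In 3pRNA + TBI against TBI, 140 to 920 of all genes were called with single libraries left out, against 794, and in blockade against 3pRNA + TBI 89 to 223, against 201. In blockade against TBI mice 6 of 32 had an unadjusted p under 0.05, against 12.3% of all genes (Dkk3, Bmp8b, Rspo3, Grem1, Dkk2 and Wnt9a). At an unadjusted p under 0.05 there were 12 of 32 in 3pRNA + TBI against TBI mice (22.2% of all genes) and 6 of 32 in blockade against 3pRNA + TBI mice (10.6% of all genes). The comparisons share groups and are not independent of each other. The median log2 change of the 32 genes was 0.11 in 3pRNA + TBI against TBI mice, -0.074 in blockade against 3pRNA + TBI mice and 0.085 in blockade against TBI mice, where the medians of all genes were -0.024, 0.0027 and -0.019. Groups did not overlap for 11 of 32 genes in 3pRNA + TBI against TBI mice (25.2% of all genes), for 7 in blockade against 3pRNA + TBI mice (15.5%) and for 5 in blockade against TBI mice (19.1%).

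**Figure D2:**
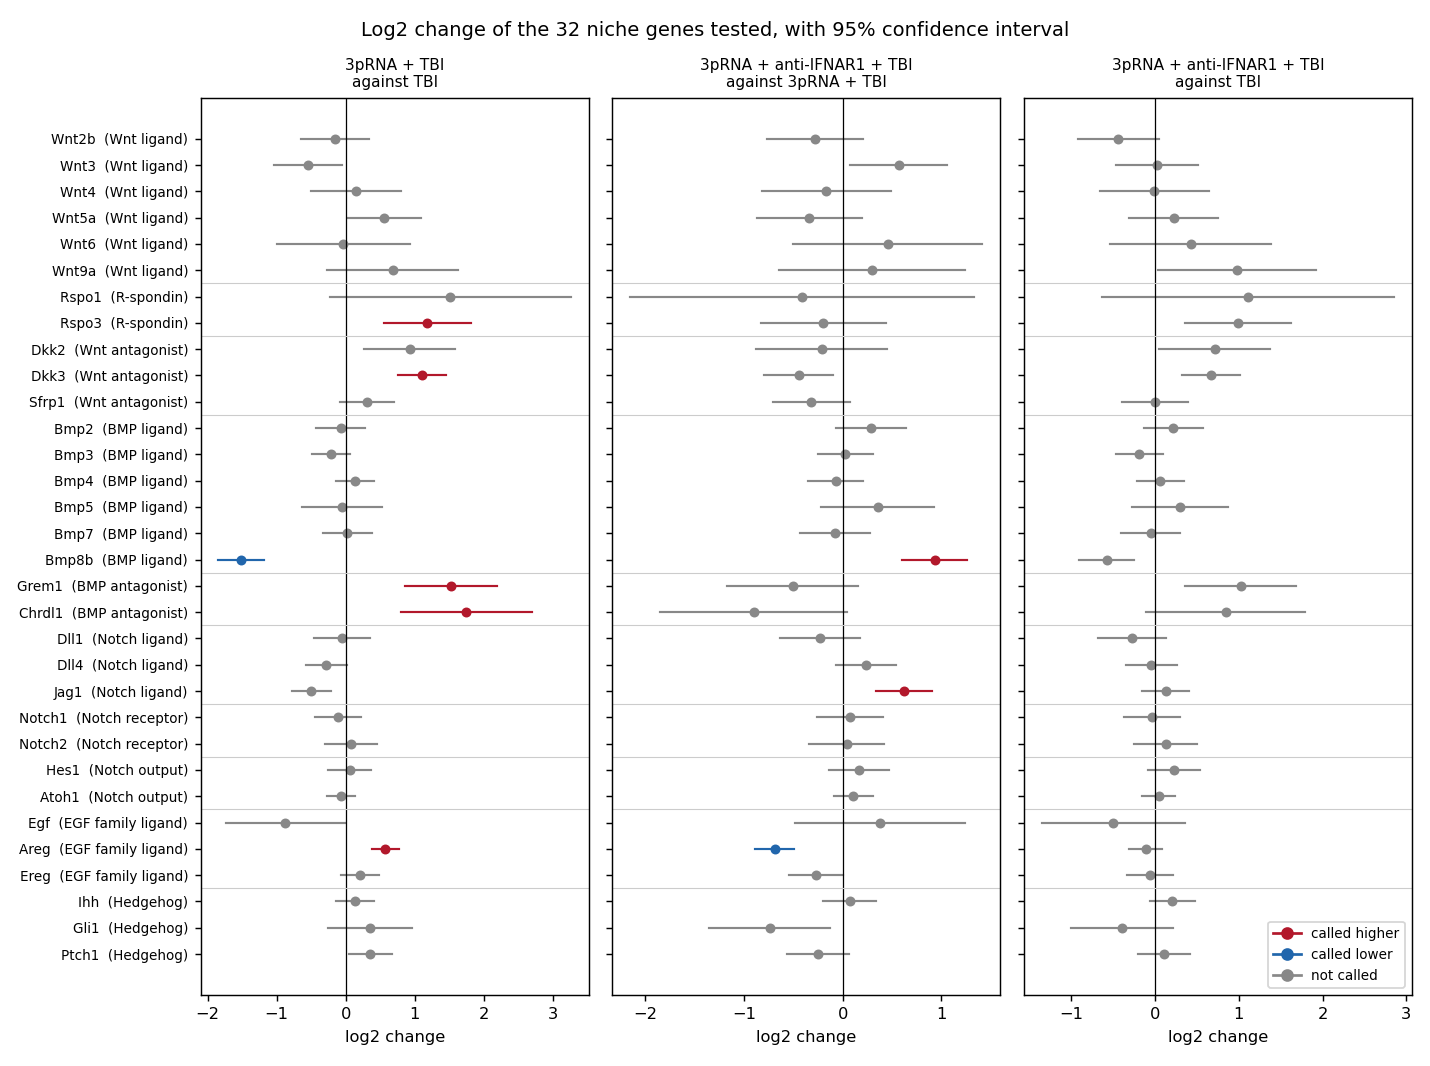
Log2 change (x axis) of the 32 niche genes tested, grouped by role, in each of the 3 comparisons, with limma's 95% confidence interval as a line. Bmp8b lies at -1.51 in 3pRNA + TBI against TBI and at 0.93 in blockade against 3pRNA + TBI, and Areg at 0.58 and -0.69.

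Areg encodes amphiregulin, an Egfr ligand known for its part in epithelial repair. Its scaled counts were 193, 197 and 178 in blockade mice, 296, 306 and 316 in 3pRNA + TBI mice and 195, 212 and 206 in TBI mice. All 3 libraries of 3pRNA + TBI mice lay above all 6 others, and blockade and TBI libraries overlapped. Areg fell by 0.69 on the log2 scale in blockade against 3pRNA + TBI mice (standard error 0.088, adjusted p = 0.0023, limma), and it rose by 0.58 in 3pRNA + TBI against TBI mice (standard error 0.088, adjusted p = 0.0084, limma). Between blockade and TBI mice the 95% interval of the log2 change was -0.31 to 0.083. The call against 3pRNA + TBI held under every alternative tried, while the call against TBI was lost with TBI replicate 2 as the only TBI mouse (0.52, adjusted p = 0.14, limma).

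Bmp8b, a BMP family ligand known mainly from germ cells and brown fat, had the opposite pattern. Its scaled counts were 95.3, 90.7 and 70.8 in blockade mice, 42.7, 47.96 and 41.7 in 3pRNA + TBI mice and 124, 126 and 132 in TBI mice. The groups did not overlap in any comparison: 3pRNA + TBI libraries were lowest, blockade libraries lay between, and TBI libraries were highest. Bmp8b rose by 0.93 in blockade against 3pRNA + TBI mice (standard error 0.15, adjusted p = 0.0099, limma), and it fell by 1.51 in 3pRNA + TBI against TBI mice (standard error 0.15, adjusted p = 8.5e-04, limma), a ratio of means of 0.346. In blockade against TBI mice the log2 change was -0.58 (95% interval -0.91 to -0.25, adjusted p = 0.19, limma). The call in 3pRNA + TBI against TBI held under every alternative with at least 2 mice in each group. With TBI replicate 2 as the only TBI mouse the log2 change was -1.49 (adjusted p = 0.030, limma). The call in blockade against 3pRNA + TBI was lost without blockade replicate 1 (0.85, adjusted p = 0.063, limma) or without 3pRNA + TBI replicate 1 (0.91, adjusted p = 0.057, limma).

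Bmp8b has a near-identical neighboring copy, Bmp8a, and how the counting divided their shared reads is not given, so the value of either gene alone is uncertain. Bmp8a had scaled counts of 151, 138 and 109 in blockade mice, 63.2, 94.1 and 82.3 in 3pRNA + TBI mice and 139.7, 197 and 153 in TBI mice. It was lower in 3pRNA + TBI than in TBI mice by 1.03 on the log2 scale (a log2 change of -1.03, adjusted p = 0.019, limma) and was not called in blockade against 3pRNA + TBI mice (0.73, adjusted p = 0.13, limma). The call in 3pRNA + TBI against TBI was lost without 3pRNA + TBI replicate 1 (-0.87, adjusted p = 0.068, limma), without 3pRNA + TBI replicate 3 (-1.06, adjusted p = 0.053, limma) or with TBI replicate 2 as the only TBI mouse (-1.31, adjusted p = 0.061, limma). The sum of both genes was 246, 228 and 179 in blockade mice, 106, 142 and 124 in 3pRNA + TBI mice and 264, 323 and 285 in TBI mice. The 3 groups of sums did not overlap, with a ratio of means of 1.76 in blockade to 3pRNA + TBI and 0.427 in 3pRNA + TBI to TBI (two-sided exact permutation tests, p = 0.10 each, the smallest that 3 mice against 3 allow).

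Jag1 encodes a Notch ligand. Its scaled counts were 188, 217 and 195 in blockade mice, 120.2, 144 and 125 in 3pRNA + TBI mice and 214, 161 and 177 in TBI mice. The 3 libraries of 3pRNA + TBI mice were the lowest 3 of 9, and the other groups overlapped. Jag1 rose by 0.62 in blockade against 3pRNA + TBI mice (standard error 0.13, adjusted p = 0.042, limma), and in 3pRNA + TBI against TBI mice its log2 change of -0.50 just missed the threshold (standard error 0.13, adjusted p = 0.0502, limma). Both sat close to the threshold. The call in blockade against 3pRNA + TBI was lost without blockade replicate 1, 2 or 3 (adjusted p = 0.11, 0.17 and 0.13, limma), without 3pRNA + TBI replicate 1 or 3 (adjusted p = 0.19 and 0.11, limma), without TBI replicate 3 (adjusted p = 0.068, limma), with equal totals (adjusted p = 0.068, limma), with the replicate block (adjusted p = 0.061, limma) and with voom on whole reads (adjusted p = 0.051). The change in 3pRNA + TBI against TBI passed without 3pRNA + TBI replicate 2 (-0.57, adjusted p = 0.045, limma) or without TBI replicate 2 (-0.59, adjusted p = 0.031, limma), and under 4 of the other alternatives.

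The bases before the starts of Areg and Bmp8b are shown because these genes were called in both comparisons that involve 3pRNA + TBI mice, and that of Grem1 because, per kilobase, it had the highest mean over the 9 libraries of the genes called. They are RefSeq promoters of GRCm38.p6, which is not the build of the authors (mm9), written 5′ to 3′ on the strand of the gene and ending at the last base before the annotated start. The window of Areg is chr5:91139349-91139598 on the plus strand, that of Bmp8b chr4:123104911-123105160 on the plus strand and that of Grem1 chr2:113758649-113758898 on the minus strand, each 250 bases. Capitals mark matches to any of 7 motifs listed after the sequences.
Areg: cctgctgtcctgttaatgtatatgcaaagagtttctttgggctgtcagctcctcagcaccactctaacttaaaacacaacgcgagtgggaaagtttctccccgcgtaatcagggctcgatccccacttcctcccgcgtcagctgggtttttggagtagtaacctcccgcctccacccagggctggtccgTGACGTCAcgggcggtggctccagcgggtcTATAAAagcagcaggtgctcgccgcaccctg
Bmp8b: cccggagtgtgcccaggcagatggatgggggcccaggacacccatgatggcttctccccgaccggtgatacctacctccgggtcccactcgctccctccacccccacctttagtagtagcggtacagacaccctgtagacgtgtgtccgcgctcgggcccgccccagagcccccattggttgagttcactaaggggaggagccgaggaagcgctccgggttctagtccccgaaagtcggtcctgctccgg
Grem1: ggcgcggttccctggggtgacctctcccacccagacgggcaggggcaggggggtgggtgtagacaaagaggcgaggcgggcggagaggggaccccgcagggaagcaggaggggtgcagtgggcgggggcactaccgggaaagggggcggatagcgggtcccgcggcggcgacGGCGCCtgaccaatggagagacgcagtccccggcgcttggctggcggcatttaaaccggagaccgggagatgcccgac
In Areg the capitals are a cAMP response element (TGACGTCA) that begins at -61 and a TATA box (TATAAA) that begins at -31, counted back from the start with -1 as the last base of the window, and in Grem1 they are a GC-rich element bound by Smad proteins (GGCGCC) at -78. Bmp8b had none of the motifs. Both strands were searched, and none of the marked matches overlap. Of 32851 RefSeq promoter windows of 250 bases, 1.55% held the cAMP response element, 12.4% the TATA box and 9.59% GGCGCC. Promoters were found for 23 of the 36 niche genes. The core of the interferon-stimulated response element, GAAANNGAA, was in 4 of them (Jag1, Ihh, Rspo1 and Sfrp5) and in 7.13% of all windows. A longer form with 1 more A at its 3′ end had been searched before it and was in none of them (2.98% of all windows), so the core was taken up after that result had been seen. None held the gamma-activated site TTCNNNGAA, found in 7.02%. Nor did any hold the Gli motif TGGGTGGTC (0.225% of all windows), and only Atoh1 held the TCF motif CTTTGAT (3.21%). GGCGCC was found in 7 of them, among them Wnt2b, Wnt4, Rspo1, Dll1 and Ptch1. The windows that held it were 64% to 85.2% GC, and all 25 windows of the 23 genes 42.8% to 85.2%. Counts of genes and shares of windows are unlike units, and whether any motif was more frequent in niche genes was not tested. These are matches of letters in a short window only.

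**Figure D3:**
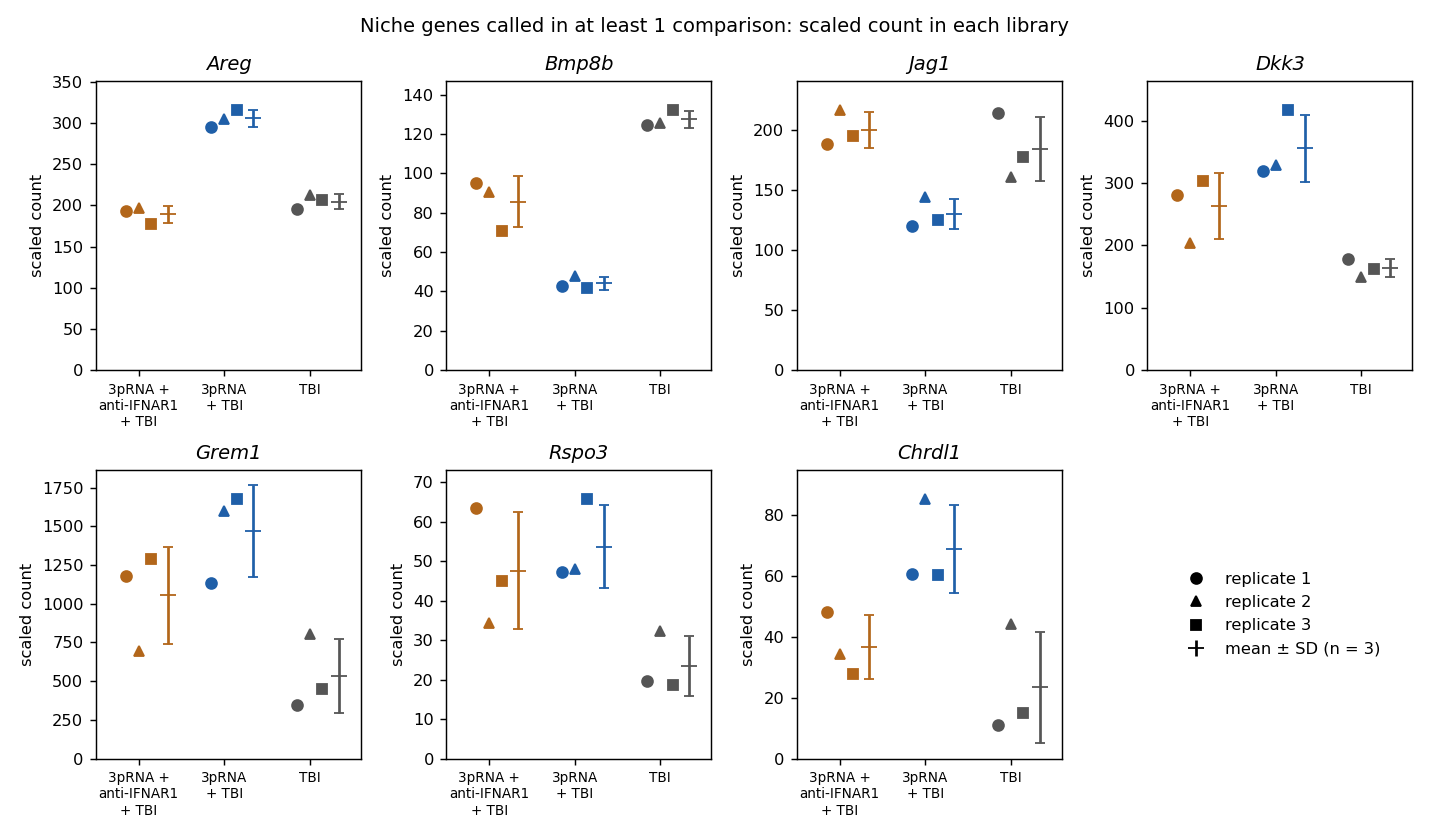
Scaled count (y axis, from 0) of the 7 niche genes called in at least 1 comparison, in each library of the blockade, 3pRNA + TBI and TBI groups, with the mean and SD of 3 mice beside the points. Areg, Bmp8b, Jag1, Chrdl1 and Dkk3 separate the 3pRNA + TBI libraries from both other groups. In Grem1, Rspo3 and Chrdl1 TBI replicate 2 lies above TBI replicates 1 and 3.

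The remaining 4 genes called encode secreted modulators of BMP and Wnt signals, and which cells made them was not examined here. All 4 had a positive log2 change in 3pRNA + TBI against TBI mice. In Grem1, Chrdl1 and Rspo3, TBI replicates 1 and 3 lay below TBI replicate 2, and in Dkk3 they lay above it. Whether 3pRNA itself raised these genes was not tested apart from this difference between TBI mice. Grem1, a BMP antagonist of the stroma and muscle below the crypt, had scaled counts of 1182, 696 and 1286 in blockade mice, 1132, 1598 and 1679 in 3pRNA + TBI mice and 349, 803 and 451 in TBI mice. Every 3pRNA + TBI library lay above every TBI library, and blockade libraries overlapped both. Its log2 change was 1.53 in 3pRNA + TBI against TBI mice (standard error 0.30, adjusted p = 0.023, limma). In blockade mice it was -0.51 against 3pRNA + TBI (95% interval -1.17 to 0.16) and 1.02 against TBI (95% interval 0.35 to 1.69, adjusted p = 0.22, limma).

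Chrdl1, a chordin-like protein that binds BMPs, had scaled counts of 48.2, 34.4 and 27.6 in blockade mice, 60.6, 85.3 and 60.3 in 3pRNA + TBI mice and 10.9, 44.1 and 15.1 in TBI mice. The 3pRNA + TBI libraries were the highest 3 of 9, and TBI replicate 2 lay within the range of the blockade libraries. The log2 change was 1.74 in 3pRNA + TBI against TBI (standard error 0.43, adjusted p = 0.043, limma) and -0.90 in blockade against 3pRNA + TBI mice (adjusted p = 0.51, limma). Rspo3, the R-spondin of the crypt stroma, had scaled counts of 63.5, 34.4 and 44.9 in blockade mice, 47.2, 47.96 and 65.8 in 3pRNA + TBI mice and 19.6, 32.3 and 18.6 in TBI mice. TBI libraries were the lowest 3 of 9, and blockade and 3pRNA + TBI libraries overlapped. Its log2 change was 1.18 in 3pRNA + TBI against TBI mice (standard error 0.29, adjusted p = 0.041, limma) and 0.99 in blockade against TBI mice (adjusted p = 0.21, limma).

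Dkk3 is a divergent Dickkopf protein whose action on Wnt signals varies with the cell type. Its scaled counts were 281, 203 and 304 in blockade mice, 319.7, 329 and 417 in 3pRNA + TBI mice and 178, 149 and 162 in TBI mice. The groups did not overlap in any comparison, with blockade between the others. The log2 change was 1.11 in 3pRNA + TBI against TBI (standard error 0.16, adjusted p = 0.0062, limma), -0.44 in blockade against 3pRNA + TBI mice (adjusted p = 0.32, limma) and 0.67 in blockade against TBI mice (adjusted p = 0.19, limma). TBI replicate 2 had the lowest Dkk3 of all libraries, at 149, unlike its place in Grem1, Chrdl1 and Rspo3.

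Markers of other cell types of the gut wall moved in the same comparison as these 4 genes. Of 11 smooth muscle markers, 6 were called higher in 3pRNA + TBI than in TBI mice, among them Acta2 (log2 change 1.38, adjusted p = 0.034, limma), as were 5 of 9 enteric neuron and glia markers tested and 6 of 8 adipocyte markers. The Acta2 call was lost without blockade replicate 1, any 3pRNA + TBI replicate or TBI replicate 1 or 3 (adjusted p = 0.05003 to 0.11, limma). With TBI replicate 2 as the only TBI mouse its log2 change was 0.48 (adjusted p = 0.35, limma). In that fit no marker of the 3 lists was called. The median log2 changes there were 0.36 for smooth muscle, 0.77 for neurons and glia and 3.62 for adipocytes, against 1.88, 1.81 and 3.75 with all libraries. The summed scaled counts of the smooth muscle markers ranged over 17315 to 28931 in blockade, 23325 to 30417 in 3pRNA + TBI and 5886 to 20001 in TBI mice. Their mean log2 level was 8.22 and 8.26 in TBI replicates 1 and 3, against 10.29 in TBI replicate 2 and 10.08 to 10.92 in the other 6 libraries. The summed neuron and glia markers ranged over 368 to 495 in blockade, 439.9 to 544 in 3pRNA + TBI and 232 to 375 in TBI mice, and the adipocyte markers over 1374 to 2854 in blockade, 1786 to 2966 in 3pRNA + TBI and 1144 to 1537 in TBI mice. No smooth muscle marker was at 0 in any library, whereas the adipocyte markers Adipoq, Plin1, Lep and Retn were at 0 in at least 1 library. None of these markers was called in blockade against 3pRNA + TBI mice by limma or voom, and none had an unadjusted p under 0.05. Their median log2 changes there were -0.095 for smooth muscle, -0.28 for neurons and glia and -1.32 for adipocytes. Blockade replicate 2 was the lowest blockade library in all 3 lists. Its mean log2 level of adipocyte markers was 4.06, against 7.46 and 5.92 in blockade replicates 1 and 3, 6.64 to 7.57 in 3pRNA + TBI and 3.77 to 3.95 in TBI mice. In blockade against TBI mice none of these markers was called by limma or voom, with 11 of 11 smooth muscle, 5 of 9 neuron and glia and 6 of 8 adipocyte markers higher at an unadjusted p under 0.05. Their part in the results of Grem1, Chrdl1, Rspo3 and Dkk3 was not tested, and fewer cells of a type cannot be told apart from less RNA per cell. Of 11 markers of fibroblasts and subepithelial mesenchyme, which include sources of these factors, 1 was called higher, Dcn (0.55, adjusted p = 0.015, limma), a call lost without TBI replicate 1 (0.56, adjusted p = 0.052, limma) and with TBI replicate 2 as the only TBI mouse (0.59, adjusted p = 0.13, limma), with a median log2 change of 0.16 for the list.

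With TBI replicate 2 as the only TBI mouse, the log2 change in 3pRNA + TBI against TBI was 0.85 for Grem1 (adjusted p = 0.24, limma), 0.70 for Rspo3 (adjusted p = 0.37, limma) and 0.61 for Chrdl1 (adjusted p = 0.42, limma), while that of Dkk3 was 1.23 (adjusted p = 0.051, limma). Bmp8b was the only niche gene past the threshold in that fit, in which 0.728% of all genes passed. With 2 mice left in a group, the Grem1 call was lost without 3pRNA + TBI replicate 1 or 3 (adjusted p = 0.052 and 0.083, limma) and without TBI replicate 1 or 3 (adjusted p = 0.076 and 0.070, limma). The Rspo3 call was lost without blockade replicate 3 (adjusted p = 0.060, limma), without 3pRNA + TBI replicate 1, 2 or 3 (adjusted p = 0.097, 0.054 and 0.13, limma) and without TBI replicate 1 or 3 (adjusted p = 0.12 and 0.11, limma). The Chrdl1 call was lost without any 1 library other than TBI replicate 2, with adjusted p of 0.054 to 0.13 (limma). Without TBI replicate 2, the log2 changes were larger, at 1.86 for Grem1, 1.43 for Rspo3 and 2.31 for Chrdl1, and Grem1 (1.36, adjusted p = 0.016, limma) and Chrdl1 (1.41, adjusted p = 0.032, limma) were then also called in blockade against TBI mice, 2 of 32 members beside 2.49% of all genes. With robust moderation the Grem1 call was lost (adjusted p = 0.066, limma), and in the fit of only the 2 groups compared those of Rspo3 and Chrdl1 were lost (adjusted p = 0.055 and 0.075, limma). The Dkk3 call held without each single library.

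**Figure D4:**
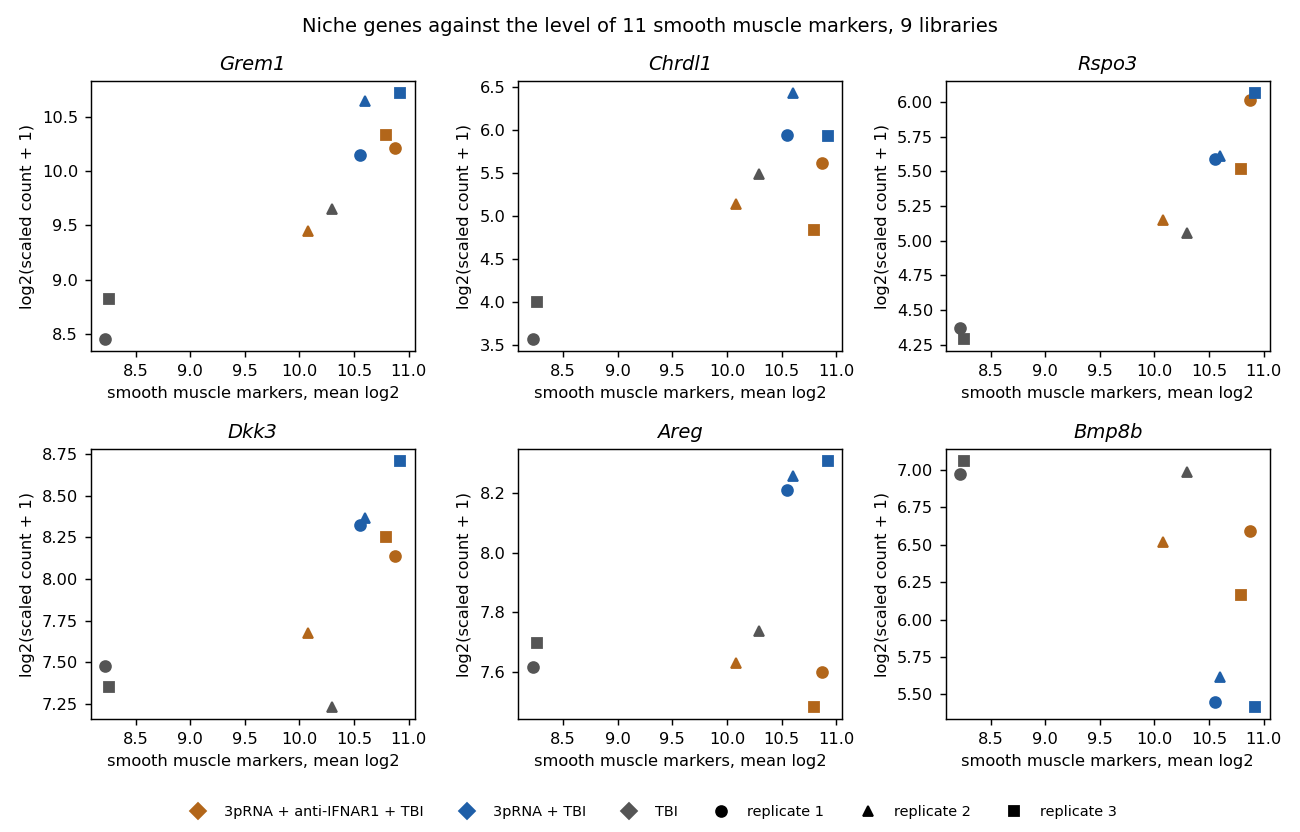
Log2(scaled count + 1) of 6 niche genes (y axis) against the mean log2 level of 11 smooth muscle markers (x axis), with colors for the blockade, 3pRNA + TBI and TBI groups and symbols for the replicate. TBI replicates 1 and 3 lie at 8.22 and 8.26 on the x axis and the other 7 libraries at 10.08 or above, where TBI replicate 2 has 149 scaled counts of Dkk3 and 803 of Grem1.

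Rspo1 and Dkk2 were lowest in TBI replicates 1 and 3, and Sfrp1 in TBI replicate 2. Rspo1, an R-spondin also made by mesothelium, had scaled counts of 22.3, 6.25 and 15.5 in blockade mice, 15.1, 11.8 and 30.7 in 3pRNA + TBI mice and 2.18, 25.5 and 2.32 in TBI mice, so that TBI replicate 2 was above 7 of the other 8 libraries and replicates 1 and 3 below all of them. It was not called (log2 change 1.52 in 3pRNA + TBI against TBI, 95% interval -0.23 to 3.26) except without TBI replicate 2 (2.53, adjusted p = 0.029, limma). With TBI replicate 2 as the only TBI mouse its log2 change was -0.50 (adjusted p = 0.77, limma). The mesothelium markers had a mean log2 level of 4.06 and 4.53 in TBI replicates 1 and 3 and of 6.93 to 8.43 in the others. Dkk2, a Wnt inhibitor, had scaled counts of 23.5, 21.9 and 34.5 in blockade mice, 28.5, 27.2 and 36.2 in 3pRNA + TBI mice and 14.6, 22.1 and 11.6 in TBI mice. The 3pRNA + TBI libraries lay above the TBI libraries, but the log2 change of 0.93 did not pass (adjusted p = 0.093, limma) except without TBI replicate 2 (1.17, adjusted p = 0.049, limma), and it was 0.44 with TBI replicate 2 as the only TBI mouse (adjusted p = 0.59, limma). Sfrp1, a secreted Frizzled decoy, had scaled counts of 287, 249 and 261 in blockade mice, 281, 326 and 395 in 3pRNA + TBI mice and 335, 200.4 and 279.6 in TBI mice. It overlapped in all comparisons, with a log2 change of 0.32 in 3pRNA + TBI against TBI mice (95% interval -0.078 to 0.71).

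Of the 7 Wnt ligands, 6 were tested and none was called in any comparison. At an unadjusted p under 0.05 there were 2 of 6 in 3pRNA + TBI against TBI (Wnt3 and Wnt5a), beside 22.2% of all genes. There was 1 in blockade against 3pRNA + TBI (Wnt3), beside 10.6%, and 1 in blockade against TBI (Wnt9a), beside 12.3%. Voom also called none of them. Wnt3, the Paneth cell ligand that supports stem cells, had scaled counts of 51.8, 65.7 and 48.3 in blockade mice, 29.4, 39.1 and 42.8 in 3pRNA + TBI mice and 66.9, 52.6 and 44.1 in TBI mice. The 3pRNA + TBI libraries were the lowest 3 of 9, with a log2 change of -0.54 against TBI (95% interval -1.03 to -0.05, adjusted p = 0.18, limma) and of 0.57 for blockade against 3pRNA + TBI mice (adjusted p = 0.38, limma). Wnt2b, a stromal ligand, had scaled counts of 61.2, 66.7 and 70.8 in blockade mice, 55.2, 87.03 and 109 in 3pRNA + TBI mice and 100.4, 79.8 and 90.5 in TBI mice. Blockade libraries lay below TBI libraries without passing the test (-0.44, adjusted p = 0.45, limma), and 3pRNA + TBI libraries spanned both. Wnt4, Wnt5a, Wnt6 and Wnt9a overlapped in all 3 comparisons. Wnt5a was not a low gene, with mean scaled counts of 88.7 in blockade, 113 in 3pRNA + TBI and 79.1 in TBI mice, so its mean went up in 3pRNA + TBI against TBI where that of Wnt3 went down. The 95% intervals of the low genes Wnt4, Wnt6 and Wnt9a were wide, as in Wnt9a, with -0.26 to 1.62 for 3pRNA + TBI against TBI mice.

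The other BMP ligands overlapped between the groups in all comparisons. Bmp4, the stromal BMP, had scaled counts of 134, 126 and 119 in blockade mice, 120.2, 150.4 and 129 in 3pRNA + TBI mice and 117, 134 and 113 in TBI mice, a log2 change of 0.13 in 3pRNA + TBI against TBI (95% interval -0.15 to 0.41). In 3pRNA + TBI against TBI mice the log2 changes of Bmp2, Bmp3, Bmp5 and Bmp7 lay between -0.22 for Bmp3 and 0.023 for Bmp7, with intervals that stayed within a log2 change of -0.62 to 0.52.

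No Notch receptor or output was called in any comparison, which with 3 mice per group does not show that their levels were equal. The interval of the log2 change in 3pRNA + TBI against TBI was -0.44 to 0.23 for Notch1, -0.29 to 0.46 for Notch2, -0.25 to 0.36 for Hes1 and -0.27 to 0.13 for Atoh1. Atoh1 had scaled counts of 306, 373 and 357 in blockade mice, 316, 316 and 326 in 3pRNA + TBI mice and 345, 326 and 333 in TBI mice. Its 3pRNA + TBI libraries lay just below the TBI libraries, a difference of -0.068 that did not pass the test (adjusted p = 0.71, limma) and was 0.046 with equal totals. Hes1 had scaled counts of 313, 271 and 264 in blockade mice, 288, 199.5 and 275 in 3pRNA + TBI mice and 229, 259.8 and 236 in TBI mice, with blockade above TBI libraries by 0.22 without passing (adjusted p = 0.53, limma). The ligands Dll1 and Dll4 overlapped in all comparisons, with log2 changes of -0.047 and -0.28 in 3pRNA + TBI against TBI mice.

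Among EGF family ligands, Ereg, which encodes epiregulin and lies beside Areg in the genome, had scaled counts of 688, 784 and 623 in blockade mice, 763, 1018 and 757 in 3pRNA + TBI mice and 776, 699.6 and 696 in TBI mice. The groups overlapped, and the log2 changes of -0.27 in blockade against 3pRNA + TBI and 0.21 in 3pRNA + TBI against TBI did not pass (adjusted p = 0.49 and 0.35, limma). Egf itself was scarce, with scaled counts of 10.6, 7.297 and 13.8 in blockade mice, 9.796, 8.29 and 5.49 in 3pRNA + TBI mice and 11.6, 18.7 and 15.1 in TBI mice. Its 3pRNA + TBI libraries lay below the TBI libraries (-0.87, adjusted p = 0.22, limma). In the Hedgehog pathway, Gli1, the transcription factor that the pathway also induces, had scaled counts of 18.8, 22.9 and 15.5 in blockade mice, 28.5, 29.6 and 39.5 in 3pRNA + TBI mice and 33.5, 23.8 and 19.7 in TBI mice. Blockade libraries lay below 3pRNA + TBI libraries, a log2 change of -0.74 that did not pass (adjusted p = 0.35, limma). Ihh and its receptor Ptch1 overlapped in all comparisons, with log2 changes of 0.14 and 0.36 in 3pRNA + TBI against TBI mice.

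The 4 niche genes below the level for testing were the BMP antagonist Nog, the Wnt inhibitor Sfrp5, the stromal Erbb ligand Nrg1 and the ligand Wnt9b. Nog had scaled counts of 9.41, 2.08 and 10.4 in blockade mice, 13.4, 5.92 and 10.97 in 3pRNA + TBI mice and 2.18, 1.698 and 0 in TBI mice. Sfrp5 had 3.53, 1.04 and 15.5 in blockade mice, 6.23, 7.697 and 9.88 in 3pRNA + TBI mice and 1.46, 0 and 1.16 in TBI mice. In both, all 3pRNA + TBI libraries lay above all TBI libraries, and a count of 0 allows up to 3 reads, or scaled counts of 1.78 to 5.18 depending on the library. Nrg1 was between 2.96 and 8.63 in all 9 libraries with overlapping groups, and Wnt9b had 0, 0 and 0 in blockade mice, 0, 0.592 and 1.097 in 3pRNA + TBI mice and 0, 0 and 1.16 in TBI mice, so no difference was detectable at this depth.

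Receptors, transducers, targets and further ligands of the same pathways were taken from lists of 131 other genes, 99 of them tested. In 3pRNA + TBI against TBI mice 3 were called higher and 1 lower, or 4.04%, against 5.59% of all genes. The genes called higher were Ror2, a Wnt5a receptor (0.79, adjusted p = 0.038, limma), Nkd1, a feedback inhibitor of Wnt signals (1.74, adjusted p = 0.036, limma), and Foxf2, a mesenchymal target of Hedgehog (0.77, adjusted p = 0.045, limma), and Bmp8a was lower. Nkd1 had scaled counts of 146, 93.8 and 152 in blockade mice, 151, 162 and 169 in 3pRNA + TBI mice and 24.7, 105 and 40.6 in TBI mice. It was high in TBI replicate 2 and low in TBI replicates 1 and 3, as the smooth muscle markers were. With TBI replicate 2 as the only TBI mouse none of the 99 was called, beside 0.728% of all genes, with 0.60 for Nkd1 (adjusted p = 0.30, limma), 0.74 for Ror2 (adjusted p = 0.26, limma) and 0.63 for Foxf2 (adjusted p = 0.31, limma). The Ror2 call was also lost without blockade replicate 1, 3pRNA + TBI replicate 1 or 3 or any TBI replicate (adjusted p = 0.052 to 0.13, limma), the Nkd1 call without blockade replicate 1 or 3, any 3pRNA + TBI replicate or TBI replicate 1 or 3 (adjusted p = 0.053 to 0.11, limma), and the Foxf2 call without blockade replicate 2 or 3, any 3pRNA + TBI replicate or TBI replicate 1 or 3 (adjusted p = 0.051 to 0.14, limma). The Nkd1 call was also lost with robust moderation (adjusted p = 0.075, limma), and those of Ror2, Nkd1 and Foxf2 in the 2-group fit (adjusted p = 0.051, 0.066 and 0.066, limma). The Foxf2 call was lost as well with no filter (adjusted p = 0.055, limma), with a mean of at least 50 (adjusted p = 0.053, limma) and with the replicate block (adjusted p = 0.053, limma). Without TBI replicate 2, Nkd1 was also called in blockade against TBI mice (1.97, adjusted p = 0.00155, limma). In blockade against 3pRNA + TBI and in blockade against TBI none of the 99 was called by limma or voom, with 10 and 14 at an unadjusted p under 0.05.

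Among transcriptional outputs, Nkd1 was the only 1 of 11 Wnt/β-catenin targets and feedback genes called, and none of 15 BMP receptors, Smads and targets and none of 18 further Notch genes was called by limma or voom in 3pRNA + TBI against TBI mice (3 and 2 of them at an unadjusted p under 0.05). Axin2, a widely used target of Wnt/β-catenin signals, had scaled counts of 662, 824 and 604 in blockade mice, 499, 679 and 829.5 in 3pRNA + TBI mice and 951, 571 and 593 in TBI mice, which overlapped (-0.065 in 3pRNA + TBI against TBI, 95% interval -0.55 to 0.42). Id1, a target of BMP receptors, had a log2 change of 0.16 in the same comparison (95% interval -0.19 to 0.51), and Nrarp, a Notch target, -0.19 (95% interval -0.41 to 0.028). Nrarp had scaled counts of 345, 443 and 388 in blockade mice, 291, 306 and 319 in 3pRNA + TBI mice and 354, 353 and 338 in TBI mice. Its 3pRNA + TBI libraries lay below those of both other groups, and it was not called in any comparison. Of 13 further Hedgehog genes, 7 were at an unadjusted p under 0.05, all of them higher, beside 22.2% of all genes in either direction. Limma called 1 of the 13, Foxf2, and voom 3. Their median log2 change was 0.59, and 0.21 with TBI replicate 2 as the only TBI mouse. Erbb3, a receptor of neuregulins, came nearest among the EGF family genes (-0.56, adjusted p = 0.071, limma). Boc, a Hedgehog co-receptor, came nearest among those of its pathway that were not called (0.81, adjusted p = 0.0502, limma). Erbb3 was called without 3pRNA + TBI replicate 2 (-0.72, adjusted p = 0.031, limma), and Boc without blockade replicate 2 (0.81, adjusted p = 0.032, limma) or without TBI replicate 2 (0.92, adjusted p = 0.040, limma). In blockade against 3pRNA + TBI mice the smallest adjusted p of the 99 was that of Foxa2, a factor of secretory lineages (0.82, adjusted p = 0.097, limma).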

How the data were processed

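Small intestine RNA of 9 BALB/c mice, 3 per group, was sequenced from poly(A) libraries (TruSeq RNA v2, HiSeq2500), and groups were taken from the sample labels. The authors aligned reads with STAR in 2 passes, counted reads per gene with HTSeq and applied DESeq size factors. The build was mm9. For versions, gene models and strand, the sources used here give nothing. Each deposited value is a signal, the HTSeq count after division by the DESeq size factor, to which the authors added 1. Tables of the authors' own comparisons (log2 ratios, adjusted p-values and group means of called genes) were not used. After subtracting 1, all values were whole multiples, within 0.02, of the value of 1 read.

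Log2(scaled count + 1) was tested with limma 3.58.1 (R 4.3.3), using a mean-variance trend and 1 fit over the 3 groups, for the 14199 genes with a mean of at least 10. Adjustment followed Benjamini and Hochberg within each comparison (threshold 0.05), and p-values measure the spread between mice, pooled over the groups. The procedure was also run on simulated counts, drawn independently for each gene and library. They held no shift shared by many genes of a library, as seen in TBI replicates 1 and 3, so they cannot speak to calls under such shifts. Exon lengths were those of GENCODE for GRCm38, and promoters those of RefSeq for GRCm38.p6 in 250-base windows searched for 7 motifs, the interferon response element first in a longer form and then by its core. Alternatives were another pseudocount (5), no filter or a mean of at least 50, equal totals, robust moderation, 2-group fits, a replicate block and each library left out. A fit with TBI replicate 2 as the only TBI mouse and voom on whole reads were added after seeing the data.

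The members and gene lists were chosen with earlier results of these data known. All 36 members are accounted for, and values per library are given for members called, without overlap or near 0. Of other pathway genes, those called and up to 3 per list by smallest p could be named, and Axin2, Id1 and Nrarp were named as pathway outputs after their values were seen.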

Additional observations from a re-analysis of the deposited data

How the results depend on the processing

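Across 18 alternatives, the 588 refitted values of the 7 niche genes called and of Ror2, Nkd1, Foxf2 and Bmp8a kept direction and side of the threshold in 507 cases, lost the call in 70, gained one in 9 and changed sign in 2. The changes of sign concerned differences that were not called: Rspo3 in blockade against 3pRNA + TBI without blockade replicate 2 (0.010, against -0.20), and Chrdl1 in blockade against TBI with TBI replicate 2 as the only TBI mouse (-0.29, against 0.84). The causes of lost calls were not tested. Leaving out libraries left fewer mice, and the number of calls also varied with the library left out. In 3pRNA + TBI against TBI, 140 of all genes were called without 3pRNA + TBI replicate 1 and 920 without 3pRNA + TBI replicate 2, against 794.

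In 3pRNA + TBI against TBI, the count called higher was 5 in the main fit, beside 494 of all 14199 genes. It was 3 with a mean of at least 50 (22 members tested), beside 347 of 11073 genes. In the 2-group fit it was 3, beside 320 of 14199 genes. With single libraries left out it ranged over 2 to 7, beside 95 to 682 of all genes. The count called lower was 1 in the main fit, beside 300 of all genes. It was 2 with a pseudocount of 5 (326 of all genes), a mean of at least 50 (295), robust moderation (276) and voom (363). With single libraries left out it was 1 to 2, beside 45 to 555 of all genes. Jag1 was the gene added. In blockade against 3pRNA + TBI, the count called higher was 2 in the main fit, beside 27 of all genes. It was 1 with equal totals (31 of all genes), the replicate block (49) and voom (29), where Jag1 was lost. With single libraries left out it was 0 to 2, beside 10 to 36 of all genes. In blockade against TBI the count called higher was 0 in the main fit. With single libraries left out it was 0 to 2, beside 0 to 311 of all genes.

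Of 42 further differences given in the text (uncalled niche genes and genes outside the module), 748 refits kept direction and side of the threshold in 673 cases, lost the call in 27 (Acta2, Dcn, Lyz1, Mx1 and Smoc2), gained one in 14 (Boc, Dkk2, Erbb3, Lyz1 and Rspo1) and changed sign in 34, none of them called. All those changes of sign were in 3pRNA + TBI against TBI. With TBI replicate 2 as the only TBI mouse the log2 changes were -0.29 for Wnt9a, -0.50 for Rspo1, -0.015 for Bmp4, 0.18 for Bmp5, 0.35 for Dll1, 0.032 for Notch1, -0.066 for Notch2, -0.050 for Hes1, -0.029 for Ihh, 0.198 for Axin2 and 0.17 for Lgr5. With equal totals they were 0.041 for Bmp2, 0.061 for Bmp5, 0.066 for Dll1, 0.0052 for Notch1, 0.046 for Atoh1 and 0.049 for Axin2, and with voom -0.0086 for Bmp7. With single libraries left out, the ranges that crossed 0 were -0.25 to 0.076 for Bmp2, -0.27 to 0.21 for Bmp5, -0.15 to 0.12 for Bmp7, -0.25 to 0.15 for Dll1, -0.28 to 0.011 for Notch1, -0.048 to 0.24 for Notch2, -0.041 to 0.22 for Hes1, -0.24 to 0.17 for Axin2, -0.020 to 0.36 for Id1 and -0.31 to 0.023 for Lgr5. For the 50 differences of niche genes that the text does not give, 54 of 883 refits changed sign and none changed a call. By voom, 7 of the 99 other pathway genes, 10 of 11 smooth muscle markers and 3 of 7 Paneth markers were called in 3pRNA + TBI against TBI, against 4, 6 and 1 by limma, where voom called 7.06% of all genes and limma 5.59%.

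Whether samples of equal number share more than a number is not given. Their deviations from the group means correlated at -0.19 to 0.34 (mean 0.15), against -0.42 to 0.23 (mean -0.074) for unequal numbers. With the replicate block, 1223 genes were called in 3pRNA + TBI against TBI (794 without), 281 in blockade against 3pRNA + TBI (201 without) and 1 in blockade against TBI (0 without), and it ended the calls of Jag1 (0.62, adjusted p = 0.061, limma) and Foxf2 (0.77, adjusted p = 0.053, limma), added those of Erbb3 (-0.56, adjusted p = 0.018, limma) and Lyz1 (0.56 in blockade against 3pRNA + TBI, adjusted p = 0.046, limma), and changed no other call named here. Low read counts limit Nog, Sfrp5, Nrg1, Wnt9b and Egf.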

Other observations

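Markers of the cells that receive and send these signals were read as values. Lyz1, the Paneth cell lysozyme, had scaled counts of 19409 to 26139 in blockade, 14633 to 15862 in 3pRNA + TBI and 22744 to 25647 in TBI mice, a log2 change of -0.64 in 3pRNA + TBI against TBI (adjusted p = 0.023, limma) and of 0.56 in blockade against 3pRNA + TBI (adjusted p = 0.065, limma). The call was lost without 3pRNA + TBI replicate 1 or TBI replicate 1 or 3 (adjusted p = 0.058 to 0.087, limma) and with TBI replicate 2 as the only TBI mouse (-0.59, adjusted p = 0.21, limma). The change in blockade against 3pRNA + TBI passed under 5 other alternatives (adjusted p = 0.039 to 0.046, limma). Of 7 Paneth markers Lyz1 alone was called by limma, while 5 were lower in 3pRNA + TBI against TBI and 5 higher in blockade against 3pRNA + TBI at an unadjusted p under 0.05. Of 7 stem cell markers, Smoc2 was called higher in 3pRNA + TBI against TBI (0.66, adjusted p = 0.0498, limma), a call lost without any 1 library other than TBI replicate 2 (adjusted p = 0.064 to 0.155, limma), and its log2 change was 0.25 with TBI replicate 2 as the only TBI mouse (adjusted p = 0.53, limma). In blockade against TBI none of the 7 was called, and 5 were higher at an unadjusted p under 0.05, which 12.3% of all genes reached in either direction. The stem cell markers Lgr5 and Olfm4 were not called in any comparison, with log2 changes of -0.15 and -0.84 in 3pRNA + TBI against TBI (adjusted p = 0.71 and 0.23, limma), and -0.059 for Olfm4 with TBI replicate 2 as the only TBI mouse (adjusted p = 0.96, limma). Lgr5 had a log2 change of 0.61 in blockade against 3pRNA + TBI (adjusted p = 0.27, limma), where the groups did not overlap, and of 0.46 in blockade against TBI (adjusted p = 0.39, limma).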
